A study of Schmidtea mediterranea with 8 samples.

Results

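zfp-2 (SMED30002213) and nkx-2.2 (SMED30011793) are transcripts of the planarian flatworm Schmidtea mediterranea that showed a gut pattern by whole-mount in situ hybridization. They are 2 of the 17882 transcripts measured in sorted cells, and they were chosen from the study's in situ candidates because their levels in this table were higher in dividing stem cells than in post-mitotic cells. That difference is therefore given as a description, without a test. Both transcripts were also on the study's list of transcripts lowered in whole worms after RNAi of chd4 and after RNAi of p53, which are other samples and were not analysed here.

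RNA was measured in 8 libraries of cells from adult animals, 4 of X1 cells and 4 of Xins cells. Per the labels, stem cells were isolated by flow cytometry after Hoechst staining of their DNA, and polyadenylated RNA was made into Illumina TruSeq libraries. X1 is the fraction of dividing cells, the neoblasts, that is lost after irradiation, and Xins is the irradiation-insensitive fraction of mostly post-mitotic cells. The study worked with the asexual CIW4 strain, and the labels give no RNAi, irradiation or other treatment for either fraction, so by the labels the 2 groups differ only in the sorted cell type.

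Planarian neoblasts are the only dividing cells of the adult body and replace every tissue, the gut included. The gut is a branched blind tube whose absorptive phagocytes and secretory goblet cells do not divide, so new gut cells come from neoblasts that leave the cell cycle and join the branches. nkx-2.2 encodes a homeodomain transcription factor of the NK-2 family that is needed for proper regeneration of the intestine. zfp-2 encodes a zinc-finger protein. Its closest protein hit in the study's tables is Glass of Drosophila virilis, and that of nkx-2.2 is the homeobox protein DTH-1 of Girardia tigrina, another planarian.

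The sequences that identify the transcripts are the primers with which the study cloned a fragment of each. The gene-specific 20 bases of each primer are given 5′ to 3′, without its cloning tail of 13 bases, and capitals mark these gene-specific bases.
zfp-2 left primer: TAGTGATTCCCAAACCAGAC
zfp-2 right primer: CTGTACAATCCGAATAAGGC
nkx-2.2 left primer: CAAATGGTGACTGTGTCAAG
nkx-2.2 right primer: CCATGAAGAATTAGAGCCAG
No genome position is given, since no genome was used here.

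zfp-2 was well expressed in both fractions and its libraries did not overlap between them. Its level in RPKM (reads scaled by transcript length and library size) was 59.3, 59.1, 67.5 and 78.0 in X1 replicates 1 to 4. In Xins replicates 1 to 4 it was 31.9, 25.0, 38.8 and 35.6 RPKM. Each X1 library stood above each Xins library, in 16 of 16 pairs, and the lowest X1 value was replicate 2 and the highest Xins value replicate 3. The mean level was 66.0 ± 8.95 RPKM in X1 and 32.8 ± 5.94 RPKM in Xins (SD, n = 4 each), so that Xins held 49.8% of the X1 level. The mean difference on the log2(RPKM + 1) scale was 0.99. Of the 15563 transcripts with a mean of at least 1 RPKM, 35.5% were called higher in X1 and 41.7% higher in Xins (limma, adjusted p under 0.05), and 32.5% had all X1 libraries above all Xins libraries, against 38.7% with all Xins libraries above. In all, 77.2% were called in either direction. A larger difference toward X1 than that of zfp-2 was found for 22.2% of them. Whether a bulk fraction holds fewer cells that express a gene or less of its RNA per cell cannot be told apart here.

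nkx-2.2 was lower than zfp-2 in every library, and its libraries overlapped. Its level was 10.6, 5.96, 11.1 and 9.91 RPKM in X1 replicates 1 to 4. In Xins replicates 1 to 4 it was 1.99, 4.72, 4.18 and 8.81 RPKM. X1 was the higher in 15 of 16 library pairs, and the exception was X1 replicate 2, the lowest of its fraction, against Xins replicate 4, the highest of its fraction. The mean level was 9.41 ± 2.35 RPKM in X1 and 4.93 ± 2.85 RPKM in Xins (SD, n = 4 each), and Xins held 52.4% of the X1 level. The mean difference on the log2(RPKM + 1) scale was 0.91, and 24.3% of the transcripts compared had a larger one toward X1. Without Xins replicate 1, the lowest library, the difference was 0.62.

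**Figure D1:**
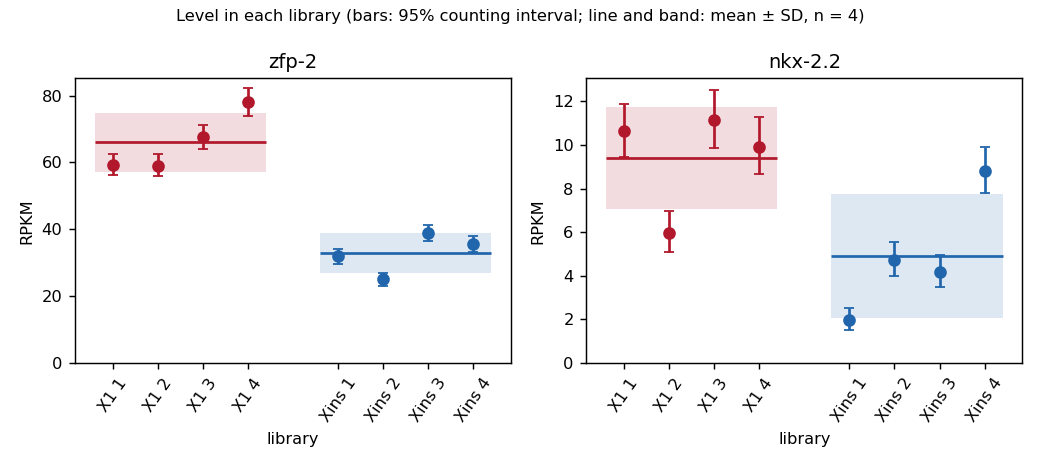
Level of zfp-2 (left) and nkx-2.2 (right) in RPKM in each of the 4 X1 (red) and 4 Xins (blue) libraries. Points carry 95% Poisson intervals of the recovered reads, and the line and band are the mean ± SD of the fraction. The zfp-2 points do not overlap between fractions, whereas nkx-2.2 in Xins replicate 4 (8.81 RPKM) lies above X1 replicate 2 (5.96 RPKM).

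The spread between libraries was larger than counting error for both genes. The deposited values could be turned back into whole reads, which gave 1374, 1275, 1382 and 1426 reads of zfp-2 in X1 replicates 1 to 4 and 827, 618, 957 and 911 in Xins. For nkx-2.2 there were 306, 160, 283 and 225 reads in X1 and 64, 145, 128 and 280 in Xins. Counting alone would give a coefficient of variation of at most 4.02% for zfp-2 and 12.5% for nkx-2.2 in any library. The coefficients of variation between libraries were 13.6% in X1 and 18.1% in Xins for zfp-2, and 25.0% in X1 and 57.8% in Xins for nkx-2.2. In Xins replicate 1 the 95% Poisson interval of nkx-2.2 was 1.53 to 2.54 RPKM, and in Xins replicate 4 it was 7.81 to 9.90 RPKM, so these libraries of the same fraction lay apart. These intervals cover counting error only.

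nkx-2.2 also varied more between Xins libraries than most transcripts of like abundance did. Its SD on the log2(RPKM + 1) scale was 0.70 in Xins, and 96.1% of the 3097 transcripts within 1.5-fold of its Xins level had a smaller one. In X1 its SD was 0.37, and 81.8% of 2318 transcripts of like level had a smaller one. zfp-2 lay nearer the middle, with an SD of 0.19 in X1 and 0.27 in Xins, above that of 60.0% and 62.3% of transcripts of like level. The sources used here do not say whether the replicates are separate sorts of separate animals, so this spread and every p-value below may be technical.

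Ranks placed both genes lower among all transcripts in Xins, and zfp-2 stood above most of the table in both. With rank 1 as the highest RPKM of 17882, zfp-2 ranked 1973, 2088, 1897 and 1796 in X1 replicates 1 to 4. In Xins replicates 1 to 4 it ranked 3342, 4082, 2959 and 2970. By its mean level zfp-2 stood above 89.2% of transcripts in X1 and 81.6% in Xins. nkx-2.2 ranked 6410, 7948, 6294 and 6626 in X1, and 13368, 10365, 10528 and 7854 in Xins. By its mean level it stood above 62.2% of transcripts in X1 and 43.1% in Xins. Its rank in Xins replicate 4 was a little higher than in X1 replicate 2, as with the levels.

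**Figure D2:**
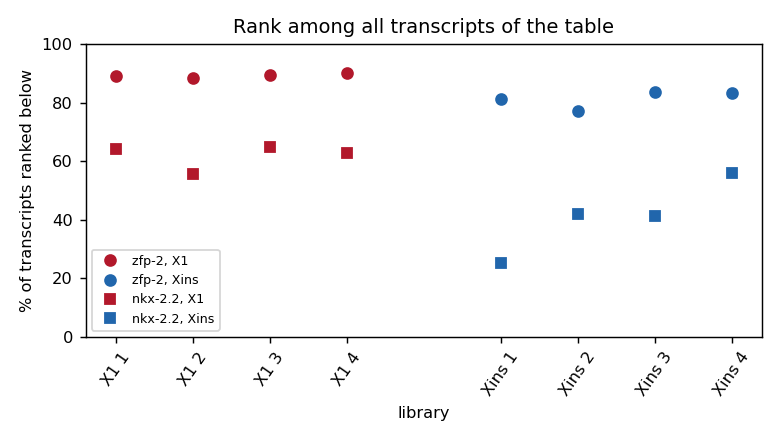
Share of the 17882 transcripts ranked below zfp-2 (circles) and nkx-2.2 (squares) in each X1 (red) and Xins (blue) library, in percent. zfp-2 moves from 89.2% by its X1 mean to 81.6% by its Xins mean, and nkx-2.2 from 62.2% to 43.1% with its lowest point in Xins replicate 1.

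Levels were also set against the median of the same library over the transcripts with a mean of at least 1 RPKM. Such a ratio does not depend on how libraries were scaled. By it zfp-2 stood at 8.96 to 11.7 times the median RPKM in X1 and 2.74 to 4.45 times in Xins. nkx-2.2 stood at 0.948 to 1.70 times the median in X1 and 0.217 to 0.978 times in Xins. The 2 genes were not in a fixed proportion to each other. The RPKM of zfp-2 over that of nkx-2.2 was 5.58, 9.90, 6.07 and 7.88 in X1 replicates 1 to 4, and 16.1, 5.30, 9.29 and 4.04 in Xins. The fractions overlapped in this ratio, at 7.36 ± 1.96 in X1 and 8.67 ± 5.41 in Xins (SD, n = 4 each), and the lowest and the highest ratio were both in Xins.

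The other transcripts that the study lists with a gut pattern were nearly all higher in Xins, opposite in direction to zfp-2 and nkx-2.2. The study drew its in situ genes mainly from transcripts lowered after RNAi of chd4 and p53, in a search for genes of epidermal progeny. The lists are therefore not a sample of all gut transcripts. The study's in situ tables list 38 others, in the gut alone or in the gut and another tissue, of which 35 were in the table and 28 had a mean of at least 1 RPKM. Of these 28, 26 were higher in Xins, 1 was higher in X1 and 1 did not pass (limma with Benjamini-Hochberg adjustment over all 15563 transcripts), beside 41.7% and 35.5% of all transcripts. Their median log2 difference was -2.10, beside -0.11 for all transcripts tested. The 16 transcripts with a pattern in the gut alone had a median of -1.67, and the 12 with a further tissue had a median of -2.73. The 7 listed transcripts below the 1 RPKM filter each had a higher mean in Xins as well.

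Enzymes made up much of the gut lists. All 7 cytochrome P450 hits tested, oxidases of lipids and foreign compounds, were higher in Xins, with log2 differences from -3.74 to -1.23. Both peptidases were higher in Xins, Digestive cysteine proteinase 2 at -2.78 and Glutamyl aminopeptidase at -2.87. Digestive cysteine proteinase 2 was at 7.73, 14.3, 34.4 and 38.4 RPKM in X1 and at 82.3, 228, 103 and 206 RPKM in Xins (limma adjusted p of 1.4e-04). These libraries did not overlap, although those of X1 spanned a wide range. Of the fatty acid ligases, which activate fatty acids for metabolism, acsl-1 was higher in Xins (-1.31) and acsl-2 did not pass (-0.52, limma adjusted p of 0.088). The largest differences toward Xins were zpuf-7 (-5.53, limma adjusted p of 5.9e-09), the Cytochrome P450 2L1 hit (-3.74, 5.3e-09), and SMED30027942 (-3.67, 3.6e-07) and SMED30019743 (-3.51, 3.2e-08), which have no protein hit. Of these, zpuf-7 and SMED30019743 had a pattern in the gut and another tissue. The study places zpuf-7, acsl-2, adss and slc25a-19 in the epidermal lineage as well as in the gut. The part of epidermal cells in these differences was not tested.

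The only other listed gut transcript called higher in X1 was the hit to EH domain-containing protein 1, whose relatives act in membrane recycling (SMED30033179). Its mean level was 24.2 ± 2.52 RPKM in the X1 libraries against 18.7 ± 2.09 in the Xins libraries (SD, n = 4 each), and X1 minus Xins was 0.35 ± 0.14 on the log2 scale (SE, with an adjusted p of 0.035 by limma). The call was lost under 9 of 19 alternatives, with differences of 0.11 to 0.38 there, among them leaving out X1 replicate 2, 3 or 4 or Xins replicate 2 or 3. zfp-3, a zinc-finger gene of the same gut list, went the other way, from 2.77 ± 0.661 RPKM in Xins down to 0.971 ± 0.501 RPKM in X1 (log2 -0.95, SE 0.21, limma adjusted p of 0.0013). With quantile normalization its difference was -0.22 (adjusted p of 0.34).

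**Figure D3:**
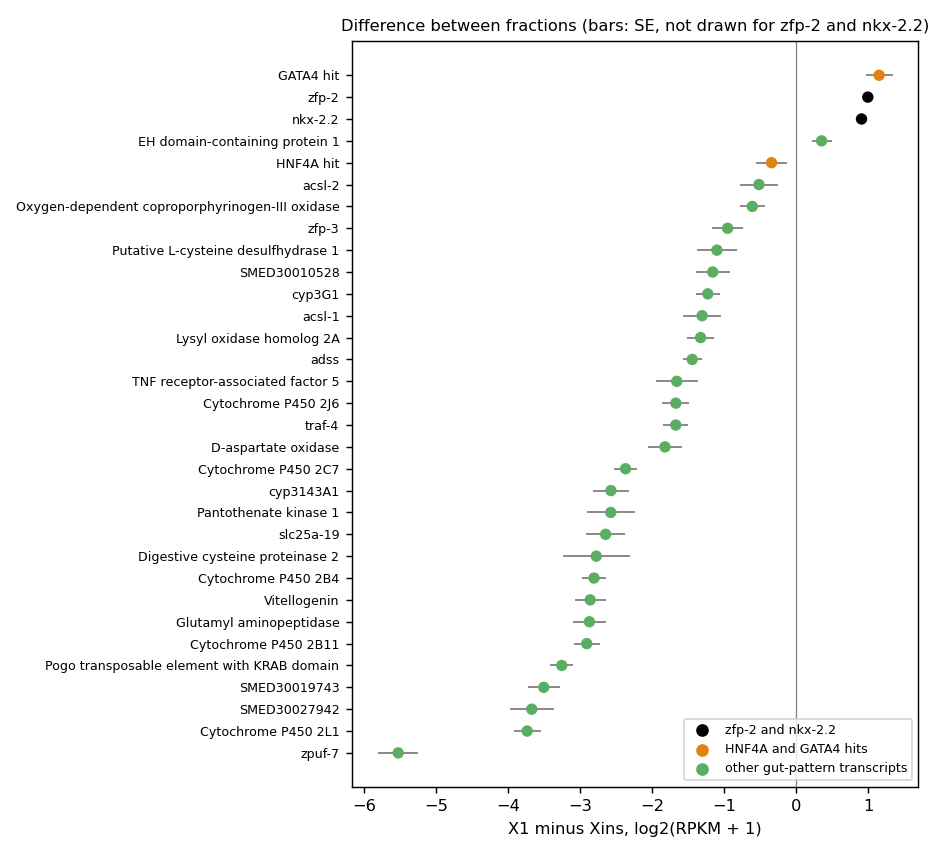
Mean difference X1 minus Xins on the log2(RPKM + 1) scale for zfp-2 and nkx-2.2 (black), the GATA4 and HNF4A hits (orange) and the 28 other gut-pattern transcripts tested (green), by name or protein hit, with SE bars except for zfp-2 and nkx-2.2. Most green points lie left of 0, with a median of -2.10, while zfp-2 (0.99) and nkx-2.2 (0.91) lie to the right.

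Within the gut lists, the rank of both genes depended on the fraction. Among these 28 transcripts and the 2 genes, zfp-2 had the highest mean RPKM in X1 and the 8th in Xins (rank 1 and rank 8 of 30). nkx-2.2 had rank 7 in X1 and rank 21 in Xins. These ranks repeat the fraction difference for which the 2 genes were chosen, so they are a description.

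Hits to GATA4 and HNF4A were measured for comparison. GATA factors act in endoderm formation in many animals, and HNF4A acts in the differentiation of gut and liver cells in vertebrates. The GATA4 hit (SMED30007290) measured 54.6, 39.4, 57.7 and 54.4 RPKM in X1 replicates 1 to 4 and 18.2, 19.1, 22.8 and 31.7 RPKM in those of Xins. The libraries did not overlap, and the difference was 1.15 (SE 0.19, limma adjusted p of 1.2e-04) on the log2(RPKM + 1) scale, past the threshold under 19 of 19 alternatives. The HNF4A hit (SMED30005748) measured 13.7, 12.0, 18.6 and 16.6 RPKM in X1 replicates 1 to 4 and 13.3, 19.3, 18.8 and 28.9 RPKM in those of Xins. Its libraries overlapped, and the difference of -0.34 (SE 0.22, limma adjusted p of 0.17) did not pass. It passed toward Xins with the libraries scaled to a common sum (-0.53, adjusted p of 0.044), with library sizes from summed reads (-0.59, 0.022) and without Xins replicate 1 (-0.51, 0.041).

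In X1 the levels of the 4 transcripts were ordered zfp-2, GATA4 hit (51.5 ± 8.22 RPKM), HNF4A hit (15.3 ± 2.94 RPKM) and nkx-2.2. No neighbours in this order overlapped. In Xins the order was the same, with the GATA4 hit at 22.9 ± 6.16 RPKM and the HNF4A hit at 20.1 ± 6.47 RPKM (SD, n = 4 each). There zfp-2 overlapped with the GATA4 hit, and the GATA4 hit with the HNF4A hit, while nkx-2.2 stayed below the others. Within each library zfp-2 was above the GATA4 hit, in 8 of 8 libraries.

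Ratios within a library, chosen after the values were seen, separated the fractions for HNF4A and not for GATA4. The RPKM of nkx-2.2 over that of the HNF4A hit was 0.496 to 0.774 in X1 and 0.149 to 0.305 in Xins, without overlap. Over the GATA4 hit it was 0.151 to 0.195 in X1 and 0.109 to 0.278 in Xins, and these ranges overlapped. For zfp-2 the ratio to the HNF4A hit was 3.63 to 4.91 in X1 and 1.23 to 2.40 in Xins, and the ratio to the GATA4 hit overlapped, with means of 1.30 in X1 and 1.47 in Xins. These ratios repeat the values above and carry no test.

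**Figure D4:**
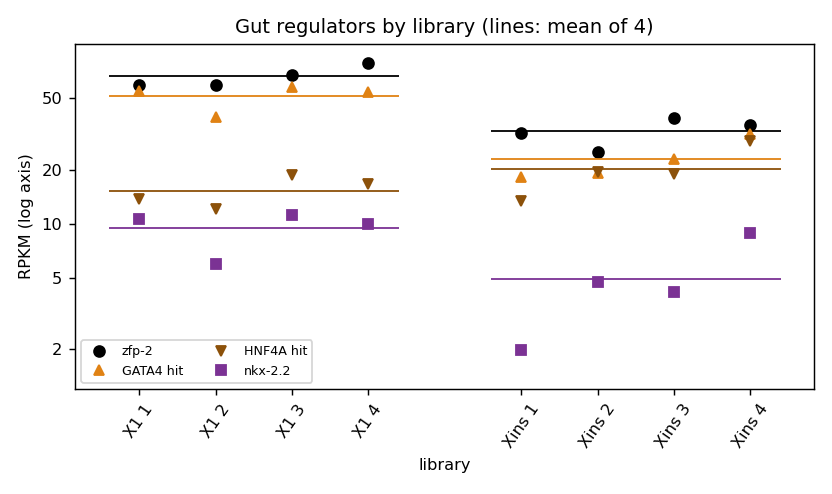
RPKM on a log axis of zfp-2, nkx-2.2 and the GATA4 and HNF4A hits in each library, with lines at the mean of the 4 libraries of a fraction. The GATA4 hit falls from 51.5 to 22.9 RPKM from X1 to Xins beside zfp-2 (66.0 to 32.8) and nkx-2.2 (9.41 to 4.93), the HNF4A hit does not, and Xins replicate 4 holds the highest Xins value of nkx-2.2 and of both hits.

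Xins replicate 4, the library with the highest Xins value of nkx-2.2, was also the highest for some other gut transcripts, but not for most. It held the highest Xins level of the GATA4 and HNF4A hits. The same held for 13 of the 28 gut transcripts (46.4%), against 28.9% of all transcripts tested. Xins replicate 2 held the highest level of 8 of the 28 (28.6%), against 21.2% of all. The summed RPKM of the 20 gut-only transcripts, both genes left out, was highest in Xins replicate 2 (416), ahead of replicate 4 (382). zfp-2 was highest in Xins replicate 3. In X1, replicate 4 held the highest level of 13 of the 28 gut transcripts (46.4%), against 35.8% of all transcripts tested, and of zfp-2 but not of nkx-2.2. These counts were made after the values were seen, and the part of gut cell content in the levels of zfp-2 and nkx-2.2 was not tested.

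Markers of the sorted and of other cell types were summed in each library to check the fractions. The summed RPKM of 9 neoblast markers (hits to Piwi-like 1 and 2, to PCNA and to the MCM2 to MCM7 helicase) was 4566 to 5100 in X1 and 232 to 424 in Xins, so Xins libraries held 4.89% to 8.94% of the X1 mean, against 49.8% for zfp-2 and 52.4% for nkx-2.2. By single marker the Xins share ran from 1.67% for MCM7 to 20.1% for Piwi-like 2. In Xins, the order of the 4 libraries by this sum, from replicate 2 up through 1 and 4 to 3, was also their order by zfp-2. In X1 the order was the reverse, since the sum rose from replicate 4 through 3 and 1 to 2 and zfp-2 rose from replicate 2 through 1 and 3 to 4. The Xins order by the sum was not that by nkx-2.2, which was lowest in replicate 1 and highest in replicate 4. Piwi-like 2, at 205, 145, 267 and 199 RPKM in Xins replicates 1 to 4, made up most of that sum. The other markers, Piwi-like 1, PCNA and MCM2 to MCM7, were each lowest in Xins replicate 1, as nkx-2.2 was. They were highest in Xins replicate 3, except MCM2 and MCM6 in replicate 4. The shares of zfp-2 and nkx-2.2 repeat the fraction difference for which they were chosen, and the orders rest on 4 libraries per fraction. Both are a description, and the part of neoblast RNA in the Xins levels of the 2 genes was not tested.

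The summed gut, epidermal and neural markers were higher in Xins, although 1 of the 4 neural markers tested was higher in X1. The 20 transcripts with a gut-only pattern, with both genes left out, summed to 46.3, 54.3, 84.8 and 86.5 RPKM in X1, or 14.8% to 27.7% of the Xins mean, with 2 to 4 of them at 0 in a library. In Xins they summed to 231, 416, 220 and 382 RPKM, with none at 0. Digestive cysteine proteinase 2 and EH domain-containing protein 1 together made up most of the X1 sums. Of the Xins sums the proteinase alone held 82.3, 228, 103 and 206 RPKM. The 9 epidermal progeny markers summed to 18.4 to 59.8 RPKM in X1, with 1 at 0 in each X1 library, and to 3123 to 5070 RPKM in Xins. The 6 neural markers summed to 18.7 to 25.6 RPKM in X1, with up to 3 at 0, and to 36.7 to 42.6 RPKM in Xins. Synaptophysin, a synaptic vesicle protein, made up most of the X1 sum and was higher in X1 (log2 difference 1.21, limma adjusted p of 2.1e-04). The part of gut-cell RNA in the X1 libraries in the levels of zfp-2 and nkx-2.2 was not tested.

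Other zinc-finger and transcription factor hits on the study's lists were called in both directions. Of 15 other zinc-finger transcripts tested, 5 were higher in X1, 6 were higher in Xins and 4 did not pass, shares near the 35.5% and 41.7% of all transcripts called in these directions, with a median log2 difference of -0.19 beside -0.11 for all transcripts. The largest toward X1 were the hits to ZN341 (4.26, limma adjusted p of 4.2e-10), ZN333 (3.27, 8.1e-09) and ZN142 (3.23, 8.3e-09), each larger than the 0.99 of zfp-2. The largest toward Xins were egr-5, an early growth response factor of the epidermal lineage (-3.93), and the hits to GFI1 (-3.15, limma adjusted p of 2.8e-09) and zebrafish EGR1 (-1.40, 7.9e-06). A further list of 8 transcription factors tested beside nkx-2.2 included the GATA4 and HNF4A hits described above. Of these 8, 4 were higher in X1, 2 were higher in Xins and 2 did not pass, beside the same 35.5% and 41.7%. Their median was 0.74. The hits to SOX13 (4.46), SOX14 (3.19) and TCF15 (1.38) were the largest toward X1, and those to SOX8 (-1.76) and ETV6 (-1.25) were the 2 called toward Xins.

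Profiles over the 8 libraries were compared by the root mean square distance of log2(RPKM + 1) after each transcript's own mean was subtracted. This measure uses the fraction difference for which the genes were chosen, and all points share the same libraries, so it is a description. Names and protein hits came only from the study's tables, which cover mainly transcripts changed after RNAi of chd4 or p53, so most transcripts compared had none. Among the 1346 transcripts with a name or protein hit there, the nearest to zfp-2 were the hits to heterogeneous nuclear ribonucleoproteins A2/B1 (SMED30011690, distance 0.0825), to Protein pelota homolog (SMED30021962, 0.0842) and to 60S ribosomal protein L4 (SMED30000134, 0.102). Of all 15562 transcripts compared, 3, 4 and 16 were nearer than these, and the median distance was 0.730. The first binds RNA, the second takes part in the rescue of stalled ribosomes and the third is a part of the ribosome. Their levels were far apart, at 555 ± 65.7, 136 ± 13.6 and 3948 ± 408 RPKM in X1.

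The named transcript nearest to nkx-2.2 was the GATA4 hit, at a distance of 0.303, with 17 of all transcripts nearer. It was followed by Leucine-tRNA ligase, which charges tRNA with leucine (SMED30024910, 0.305, with 21 nearer), and Puromycin-sensitive aminopeptidase (SMED30003259, 0.328, with 50 nearer). These distances were larger than those of zfp-2 to its neighbours, and the median distance from nkx-2.2 was 0.848. With a pseudocount of 5 instead of 1 the GATA4 hit was no longer among the 3 nearest named transcripts, whereas all 3 of zfp-2 were kept. The distance between zfp-2 and nkx-2.2 was 0.484, with 976 transcripts nearer to nkx-2.2 than zfp-2 was and 4696 nearer to zfp-2 than nkx-2.2 was. zfp-2 lay 0.240 from the GATA4 hit and 0.733 from the HNF4A hit.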

How the data were processed

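The authors deposited 1 table of RPKM values for 17882 transcripts in 8 libraries (4 X1, 4 Xins). The submitters' processing notes name CASAVA 1.8.2, Bowtie and edgeR. Alignment settings and filters were not given in the sources used here, and reads of near-identical transcripts could be split between them. Multiplying the deposited values by a whole-number length per transcript and a size per library gave whole reads (within 0.001) for 17882 of 17882 transcripts, 14323705 to 15523242 reads per library. The library size behind the RPKM values, divided by these reads, was 0.823 to 1.02 in X1 libraries and 1.02 to 1.15 in Xins libraries, so the values were already scaled between libraries.

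Values were analysed as log2(RPKM + 1), which understates changes of low transcripts. Transcripts with a mean of at least 1 RPKM were kept (15563, both genes among them; 2319 left out). They were fitted with limma 3.58.1 (R 4.3.3, mean-variance trend, two-sided, Benjamini-Hochberg adjustment, threshold 0.05). The fit was also run on simulated data with normal noise and few changed transcripts. That setting differs from these data, where 77.2% of transcripts were called, so it does not give the error rate here. Python 3.11.15, pandas 2.3.3 and scipy 1.17.1 did the rest. Poisson intervals were exact at 95%. Named are zfp-2, nkx-2.2 and, from the gut lists, zfp-3, every transcript called higher in X1 and the 4 largest differences toward Xins. Also named are the GATA4 and HNF4A hits, the 3 largest differences in each direction of each transcription factor list, and the 3 named transcripts nearest in profile to each gene. Digestive cysteine proteinase 2, Glutamyl aminopeptidase, acsl-1, acsl-2 and synaptophysin were added after their values were seen. The genes and lists were chosen with earlier results of these data known. Alternatives were other pseudocounts, filters, scalings and fits, the replicate block and leaving out each library.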

Additional observations from a re-analysis of the deposited data

Results flagged for a closer look

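In 98 groups of 4 libraries, the highest or lowest library was compared with its nearest neighbour. These groups were the transcripts named above, the 4 marker sums and the ratios given for zfp-2 and nkx-2.2, each in both fractions. A gap past Dixon's 95% critical value was found in 6 groups, where chance would give 4.9. The SOX8 hit was at 42.7 RPKM in X1 replicate 2, the ETV6 hit at 0.837 RPKM in X1 replicate 4 and the SOX13 hit at 8.87 RPKM in Xins replicate 3. X1 replicate 1 had acsl-1 at 4.40 RPKM, the MCM2 hit was at 0.538 RPKM in Xins replicate 1 and the MCM3 hit at 162.6 RPKM in X1 replicate 3. Neither zfp-2 nor nkx-2.2 had such a library.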

How the results depend on the processing

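X1 stayed above Xins for both genes under every alternative run, with log2 differences of 0.74 to 1.08 for zfp-2 and 0.56 to 1.35 for nkx-2.2. The lowest for zfp-2 was 0.74 with library sizes from summed reads, where nkx-2.2 was at 0.69. The lowest for nkx-2.2 was 0.56 with a pseudocount of 5. Leaving out 1 library gave 0.87 to 1.08 for zfp-2 and 0.62 to 1.19 for nkx-2.2. The scaling also moved the other transcripts. The median over all transcripts was -0.11 as reported, 0.22 with quantile normalization and -0.34 with summed reads as library sizes, and relative to that median zfp-2 stood at 1.11, 0.70 and 1.08 and nkx-2.2 at 1.02, 1.13 and 1.03. The calls over all transcripts split into 5519 higher in X1 and 6492 higher in Xins as reported, and into 6904 and 5413 with quantile normalization. With a mean of at least 5 RPKM, 3708 transcripts were higher in Xins, and 12 of the other gut transcripts were, because fewer transcripts were tested, and zfp-3 had no value. The count of other gut transcripts higher in X1, 1 as reported, was 0 with median-ratio rescaling, with a common sum of RPKM and with summed reads as library sizes, and 0 to 1 without 1 library. The count higher in Xins was 24 to 26 without 1 library.

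The labels do not say whether libraries of the same number are pairs. Same-numbered libraries correlated in their deviations at 0.27, -0.19, -0.12 and -0.02, and the 0.27 of replicate 1 was the highest of any X1 and Xins pair. With so few libraries in a fraction these correlations cannot settle the pairing. With the replicate block 11911 transcripts were called (5457 higher in X1 and 6454 in Xins) in place of 12011, and the count of other gut transcripts higher in X1 was 0 (EH domain-containing protein 1, 0.35, limma adjusted p of 0.073). The block leaves the differences of zfp-2 and nkx-2.2 as they are. Low read counts limit nkx-2.2 more than zfp-2, with 64 reads in Xins replicate 1, although its spread between libraries was larger than counting error.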
